A study of Mus musculus with 9 samples.

Results

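Cdkn1a, Btg1, Btg2, Gadd45a, Gadd45b, Gadd45g, Ier2 and Ier5 are genes of growth arrest and early stress response, and all 8 were looked for by symbol among the probe sets that the platform annotation assigns to a single gene. Of these, 7 were found, each with 1 probe set, among 22180 genes measured. The probe set that covers Gadd45a is annotated to 2 genes and was not used, so 7 genes are described. All mice were C57BL/6J, an inbred laboratory strain, and total RNA came from the anterior cingulate cortex, a frontal midline area dissected between bregma 1.34 and -0.5 mm. Each of the 3 groups had 3 arrays, 1 for each sample that the titles call biological. The saline group had an intraperitoneal saline injection at ZT5, which is 5 h after lights-on. The KT group had ketamine, a blocker of NMDA-type glutamate receptors, at 3 mg/kg by the same route and at the same time. The SD group was sleep deprived over the 12 h from ZT0 to ZT12, with a bar turning at 1.5 rpm in the cage. No injection is given for SD mice, and no turning bar for the other groups. Wakefulness, the movement of the bar and the lack of an injection thus cannot be told apart. All tissue was taken at ZT13.

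CDKN1A, also called p21, binds cyclin-dependent kinases and the replication factor PCNA and holds cells at checkpoints, and its gene is a classic target of the tumour suppressor p53 that is also induced by glucocorticoids. The BTG proteins recruit the CCR4-NOT deadenylase, which shortens mRNA tails, and restrain proliferation. GADD45 proteins bind MAP3K4 and other stress-signalling partners, and in neurons they have been linked to activity-dependent DNA demethylation. IER2 and IER5 are nuclear products of immediate-early genes. Nearly all neurons of adult cortex have left the cell cycle, so these genes are read there mostly as part of the response to activity and stress.

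The sequences just upstream of 5 of these genes are shown because at least 1 comparison below had groups that did not overlap for each of them, so that the letters matching known motifs can be read beside the values. Each run holds 250 bases that end at the base before an annotated transcript start, written 5′ to 3′ on the gene's strand, from RefSeq (build GRCm38.p6). Of the 8 genes sought, 7 had an entry, and Ier2 is named only. Cdkn1a has 2 starts in that table, and the run shown is the more upstream one. Capitals mark matches on either strand to the cyclic AMP response element (CRE, TGACGTCA), an E-box (CACGTG), or a p53 half-site, whose letters allow alternatives. They also mark TATAAA, written below as the TATA box. AP-1 (TGANTCA), the full glucocorticoid response element and the CArG box of serum response factor were searched too. The runs lie at chr17:29090729-29090978 on the plus strand (Cdkn1a), chr1:134079156-134079405 on the minus strand (Btg2), chr10:80929841-80930090 on the plus strand (Gadd45b), chr13:51846425-51846674 on the plus strand (Gadd45g) and chr1:155099637-155099886 on the minus strand (Ier5).
Cdkn1a: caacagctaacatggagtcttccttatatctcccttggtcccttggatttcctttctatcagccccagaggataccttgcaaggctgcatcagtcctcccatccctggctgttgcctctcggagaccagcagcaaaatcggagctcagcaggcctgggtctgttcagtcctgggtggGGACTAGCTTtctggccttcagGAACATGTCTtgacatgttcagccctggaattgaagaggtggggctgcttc
Btg2: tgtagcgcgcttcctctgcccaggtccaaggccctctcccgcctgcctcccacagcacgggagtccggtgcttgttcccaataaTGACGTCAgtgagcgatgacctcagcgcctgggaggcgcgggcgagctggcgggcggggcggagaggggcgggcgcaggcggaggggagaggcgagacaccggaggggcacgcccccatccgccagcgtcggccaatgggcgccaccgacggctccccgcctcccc
Gadd45b: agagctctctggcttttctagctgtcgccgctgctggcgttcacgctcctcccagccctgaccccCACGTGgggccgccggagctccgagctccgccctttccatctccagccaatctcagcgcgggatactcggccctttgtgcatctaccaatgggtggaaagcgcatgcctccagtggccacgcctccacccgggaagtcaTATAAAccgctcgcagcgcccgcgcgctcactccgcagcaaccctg
Gadd45g: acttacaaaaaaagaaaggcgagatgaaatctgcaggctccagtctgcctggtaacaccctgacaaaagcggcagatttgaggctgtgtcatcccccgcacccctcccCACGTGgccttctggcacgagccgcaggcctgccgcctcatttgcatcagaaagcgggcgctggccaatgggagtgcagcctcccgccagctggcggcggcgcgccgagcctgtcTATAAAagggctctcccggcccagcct
Ier5: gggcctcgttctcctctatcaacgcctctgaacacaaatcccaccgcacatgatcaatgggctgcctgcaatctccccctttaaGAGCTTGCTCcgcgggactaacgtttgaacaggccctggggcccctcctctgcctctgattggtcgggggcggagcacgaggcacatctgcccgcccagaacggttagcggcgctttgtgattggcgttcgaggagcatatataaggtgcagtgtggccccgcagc
The Cdkn1a run shown, that of the more upstream start, holds 2 p53 half-sites, from bases -73 to -64 and -51 to -42 before that start. Of 32851 such runs over all genes, 7.13% hold at least 1. The run of the second Cdkn1a start matched none of the motifs searched, p53 half-sites included. Btg2 has a CRE from -166 to -159, found in 1.55% of all runs. Gadd45b and Gadd45g both have an E-box, from -185 to -180 and from -142 to -137, against 6.02% of all runs, and both have a TATA box, against 12.4%. Ier5 has 1 p53 half-site, from -166 to -157. Of the runs not printed, that of Btg1 has a TATA box and that of Gadd45a 1 p53 half-site. No run of a member, the second start of Cdkn1a included, matched the AP-1, glucocorticoid or CArG letters, which 6.75%, 0.00913% and 1.47% of all runs hold. These matches describe letters in a short window and are not measured binding.

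Values are the deposited intensities of 1 probe set per gene on a linear scale, and since probe sets differ in how brightly they hybridise, levels are compared between groups of 1 gene and never between genes. Differences are of mean log2(intensity + 16) ± SE from 1 limma fit over all 9 arrays, with p-values adjusted over all 22180 genes by the Benjamini-Hochberg method. The median of all array intensities lay between 97.7 and 106, and arrays of a group correlated at 0.986 to 0.995 across genes. Neuronal markers were bright on every array (8 of 8 measured, dimmest Gad1 with a mean of 395). Saline array 2 stood apart in choroid plexus markers. Ttr, the transthyretin gene of that tissue, read 8428 there against 1624 and 109.5 on saline arrays 1 and 3, 89.5 to 428 on SD arrays and 138 to 467 on KT arrays. Kl, another choroid plexus marker, read 587 on that array and 113 to 140 on the other 8. Values without that array are therefore given for member differences from saline at unadjusted p under 0.05. They are not given for genes of the lists or for cell type markers. In bulk tissue, fewer cells of a type and less RNA per cell cannot be told apart.

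No member passed adjusted p 0.05 in any comparison. By limma 0 of 22180 genes did in each of the 3 comparisons (0% called), while 1013 genes in KT against saline (4.57%), 781 in SD against saline (3.52%) and 2103 in KT against SD (9.48%) had an unadjusted p under 0.05. Members are therefore described by level, interval and unadjusted p, read against those background shares. The members were chosen with earlier results of these data known, so their counts beside such shares are descriptive and not a test. In the F test of any difference among the groups, 4 of 7 members (Cdkn1a, Btg2, Gadd45b and Gadd45g) had an unadjusted p under 0.05, where 5.8% of all genes did, and 0 passed after adjustment. Cdkn1a stood at rank 6 of all genes by that test (adjusted p = 0.348).

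**Figure D1:**
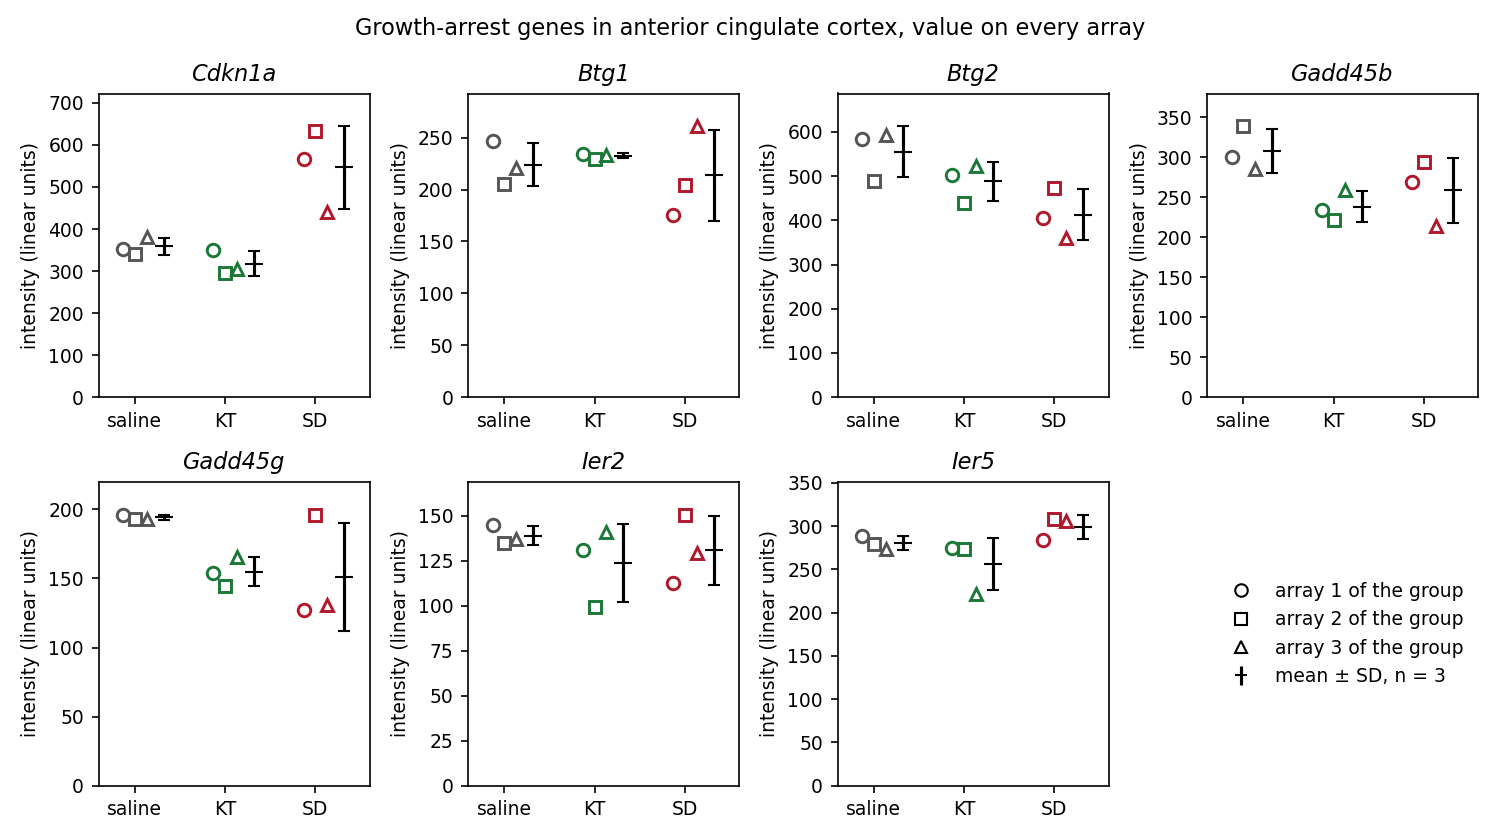
Deposited intensity (linear units, axes from 0) of each gene on each of the 9 arrays by group, with symbols for array number and bars for mean ± SD (n = 3). The 3 SD arrays lie above all others for Cdkn1a (440 to 633), and the 3 KT arrays lie below all saline arrays for Gadd45b and Gadd45g.

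Cdkn1a, the cell cycle inhibitor gene, was highest after sleep deprivation and lowest after ketamine. Its intensity (probe set 17335467) was 353, 341 and 380 on saline arrays 1 to 3, 568, 633 and 440 on SD arrays 1 to 3, and 351, 296 and 306 on KT arrays 1 to 3. Every SD array was thus above every saline and every KT array, while saline and KT overlapped because KT array 1 reached the saline range. The group means were 358 ± 19.9, 547 ± 98.2 and 318 ± 29.2 for saline, SD and KT (SD, n = 3).

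The SD mean of Cdkn1a was 1.53 times the saline mean and 1.72 times the KT mean. On the log2 scale SD stood above saline by 0.57 ± 0.12 (95% interval 0.31 to 0.84, unadjusted p = 0.000417, adjusted p = 0.835), which was rank 9 of all genes by p. KT stood below SD at -0.74 ± 0.12 (-1.01 to -0.48, unadjusted p = 3.7e-05, adjusted p = 0.172), rank 3 of all genes. This last difference had an adjusted p under 0.05 in 5 other settings, at 0.0463 with the dimmest 33.3% of genes removed, 0.0258 with an offset of 64, 0.0143 with limma-trend, 0.0197 with array weights and 0.0114 without SD array 3, within a range of 0.0114 to 0.782 over all settings. KT against saline was -0.17 ± 0.12 with an interval of -0.44 to 0.098, which includes 0.

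SD array 3 had the smallest of the 3 Cdkn1a values of its group. Without it the difference from saline was 0.72 ± 0.11 (adjusted p = 0.0712), and without SD array 2, the brightest, it was 0.46 ± 0.12 (adjusted p = 0.756). Without saline array 2 it was 0.54 ± 0.14. The difference thus kept its sign under each of these removals and varied in size with the SD arrays.

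Endothelial markers differed between the same groups. All 8 measured markers had a higher mean in SD than in saline (median log2 difference 0.15), with 1 at unadjusted p under 0.05. All 8 had a lower mean in KT than in SD (median -0.25), with 6 at unadjusted p under 0.05. Over all genes 53.4% had a lower mean in SD than in saline, and 53% a lower mean in KT than in SD. At unadjusted p under 0.05, 1.8% of all genes were higher in SD than in saline and 4.38% lower in KT than in SD. The summed intensity of the endothelial markers ran from 2187 to 2407 in saline, 2454 to 2641 in SD and 1993 to 2399 in KT. The lowest value of these markers was 112, close to the array medians of 97.7 to 106. Among SD arrays, array 2 had the highest Cdkn1a and the lowest endothelial sum, 2454. Microglial markers summed to 2483 to 2654 in SD, 2333 to 2538 in saline and 2275 to 2451 in KT, with 6 of 8 higher in SD than in saline. The lowest microglial value was 103, within the range of the array medians. Oligodendrocyte markers had a lower mean in SD than in saline for 6 of 6 measured genes (median -0.18), with sums of 3045 to 3959 against 3484 to 4312, and 3088 to 5412 in KT. The part of these cell types in the Cdkn1a values was not tested.

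Btg2, whose protein promotes deadenylation of mRNA, was lowest after sleep deprivation and highest after saline. Its intensity (probe set 17227089) was 585, 489 and 593 on saline arrays 1 to 3, 502, 439 and 524 on KT arrays and 404, 474 and 361 on SD arrays. All SD arrays lay below all saline arrays, though SD array 2 and saline array 2 were close, and KT overlapped both. Group means were 556 ± 57.9 in saline, 488 ± 43.9 in KT and 413 ± 57.0 in SD (SD, n = 3).

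The SD mean of Btg2 was 0.743 times the saline mean. The log2 difference was -0.42 ± 0.12 (-0.67 to -0.16, unadjusted p = 0.00348, adjusted p = 1.00), rank 63 of all genes. Without SD array 2 it was -0.52 ± 0.12 and without saline array 2 -0.50 ± 0.13. Without SD array 3 it was -0.33 ± 0.12, the smallest in size over removals of single arrays. KT against saline was -0.18 ± 0.12 (-0.43 to 0.076), and KT against SD was 0.24 ± 0.12 (-0.016 to 0.49), both with intervals that include 0.

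Btg1, the close relative of Btg2, had groups that overlapped in each comparison. It read 246, 205 and 221 on saline arrays 1 to 3, 234, 230 and 233 on KT arrays and 175, 204 and 261 on SD arrays (probe set 17236787). SD array 1 was the lowest and SD array 3 the highest of the 9, so the SD group spanned both others, while the KT arrays lay close together. Its differences of 0.053 ± 0.12 for KT and -0.078 ± 0.12 for SD against saline had intervals of -0.21 to 0.32 and -0.34 to 0.19. KT against SD was 0.13 ± 0.12 (-0.14 to 0.40).

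Gadd45b was lower after ketamine than after saline. This stress sensor gene (probe set 17235511) read 300, 339 and 285 on saline arrays 1 to 3, 234, 221 and 260 on KT arrays and 269, 294 and 214 on SD arrays. All KT arrays were below all saline arrays, and SD array 2 was inside the saline range. Means were 308 ± 27.8 in saline, 238 ± 19.4 in KT and 259 ± 40.7 in SD (SD, n = 3).

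The KT mean of Gadd45b was 0.774 times the saline mean, a log2 difference of -0.35 ± 0.12 (-0.60 to -0.094, unadjusted p = 0.0109, adjusted p = 0.870). Without saline array 2, the highest of the 9, it was -0.28 ± 0.13 and had no unadjusted p under 0.05. SD against saline was -0.25 ± 0.12, and that interval reached 0.0094. It was -0.12 without SD array 3 and -0.34 without SD array 2, and it had an unadjusted p under 0.05 without SD array 2 and in 4 other settings (quantile normalization, the dimmest 33.3% of genes removed, an offset of 64 and limma-trend). KT and SD did not differ beyond their spread (-0.10 ± 0.12, -0.36 to 0.15).

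Gadd45g, another gene of the same family, was lower than saline on all KT arrays and on 2 of 3 SD arrays. It read 196, 193 and 193 on saline arrays 1 to 3 (the last pair is deposited at the same value), 154, 145 and 166 on KT arrays and 127, 196 and 131 on SD arrays (probe set 17287361). The saline arrays agreed within a coefficient of variation of 0.955%, against 25.7% for SD, where array 2 sat at the saline level and arrays 1 and 3 lay below every KT array. Means were 194 ± 1.85, 155 ± 10.6 and 151 ± 38.8 for saline, KT and SD (SD, n = 3).

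The log2 difference of Gadd45g was -0.30 ± 0.13 for KT (-0.58 to -0.017, unadjusted p = 0.0390) and -0.35 ± 0.13 for SD (-0.64 to -0.072, unadjusted p = 0.0177) against saline. Without saline array 2 the values were -0.30 ± 0.15 for KT and -0.36 ± 0.15 for SD. Among removals of single arrays, the KT value kept an unadjusted p under 0.05 only without KT array 3. Without SD array 2 the SD value was -0.54 ± 0.09 with adjusted p = 0.341, and without SD array 3 it was -0.27 ± 0.14. KT against SD was 0.054 ± 0.13 (-0.23 to 0.34), and its sign turned without SD array 1 (-0.047) or SD array 3 (-0.028). The KT and SD values share the saline arrays and are thus not independent of each other.

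Ier2, an immediate-early gene that growth factors induce, read 145, 135 and 137 on saline arrays 1 to 3, 131, 99.3 and 141 on KT arrays and 112, 151 and 129 on SD arrays (probe set 17511130). All pairs of groups overlapped, with KT array 2 the lowest and SD array 2 the highest. Its differences from saline were -0.16 ± 0.13 for KT and -0.085 ± 0.13 for SD, and KT against SD was -0.075 ± 0.13, with each interval including 0.

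Ier5, whose protein acts with heat shock factor 1, read 288, 280 and 273 on saline arrays 1 to 3, 274, 273 and 222 on KT arrays and 284, 309 and 307 on SD arrays (probe set 17228349). All KT arrays were below all SD arrays, and both groups overlapped saline. KT against SD was -0.22 ± 0.10 (-0.43 to -0.0035, unadjusted p = 0.0468, adjusted p = 0.527). Without KT array 3 it was -0.12 and had no unadjusted p under 0.05, and it had none without SD array 2, without SD array 3 or with quantile normalization either. Against saline the values were -0.13 ± 0.10 for KT and 0.089 ± 0.10 for SD.

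**Figure D2:**
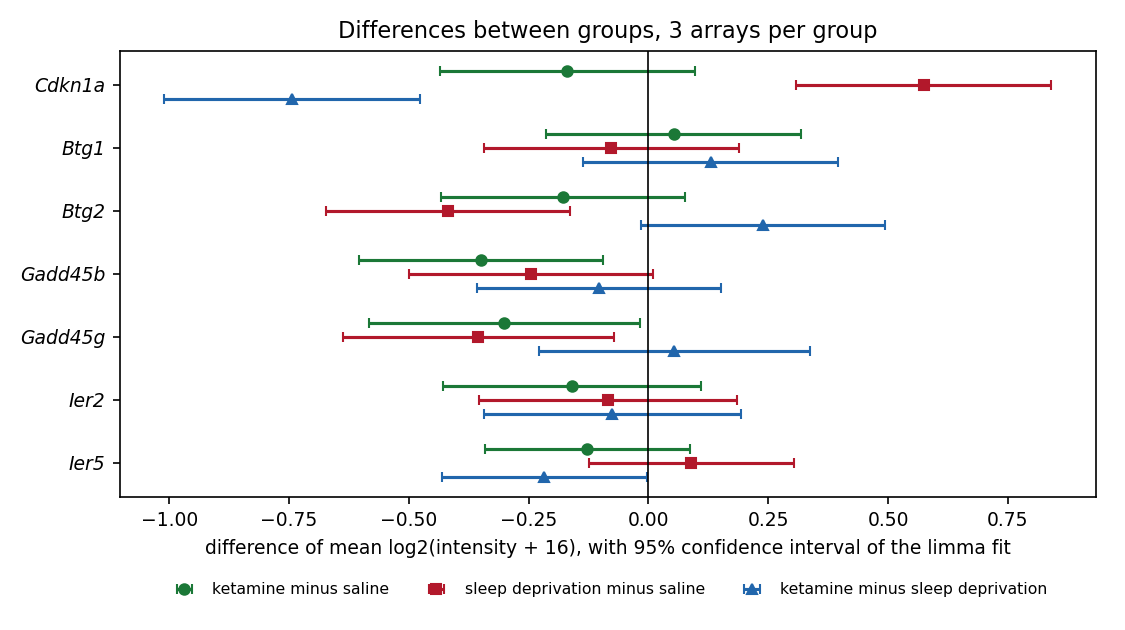
Differences of mean log2(intensity + 16) for the 7 genes in each comparison, with 95% confidence intervals from the limma fit (3 arrays per group). Cdkn1a lies at 0.57 for sleep deprivation minus saline and at -0.74 for ketamine minus sleep deprivation, while the intervals of Btg1 and Ier2 include 0 in each comparison.

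Counts over the members differed between comparisons, and they are descriptive because the members were chosen with earlier results of these data known. In KT against saline 6 of 7 had a lower mean, where 54.6% of all genes did, and their median difference was -0.17 against -0.015 over all genes. Of these, 2 (Gadd45b and Gadd45g) had an unadjusted p under 0.05 in the downward direction, against 2.35% of all genes, and the same 2 had groups that did not overlap, with KT below, against 7.89% (14.4% in either direction). The count at unadjusted p depended on single arrays and was 0 without saline array 2, 1 (Gadd45b) without saline array 1, saline array 3, KT array 1 or KT array 2, and 2 without KT array 3. Array weights gave KT array 2 a weight of 7.92 and raised the count to 5, which leaves out Btg1 and Ier5 and has adjusted p from 0.0140 to 0.0476, and an offset of 1 lowered it to 1.

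In SD against saline 5 of 7 members had a lower mean, where 53.4% of all genes did, and the median difference was -0.085 against -0.0088. At unadjusted p under 0.05, 2 members (Btg2 and Gadd45g) were lower against 1.72% of all genes, and 1 (Cdkn1a) was higher against 1.8%. The groups did not overlap for 2 members, where 7.11% of all genes did so, with Cdkn1a above (3.57% of genes) and Btg2 below (3.54%). The count of 3 became 4 with Gadd45b added without SD array 2 and in the 4 settings named for that gene, and 2 with Gadd45g lost without SD array 1 or SD array 3.

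In KT against SD 4 of 7 members had a lower mean, where 53% of all genes did, with a median of -0.075 against -0.012. The all-gene median there was -0.041 with the dimmest 33.3% of genes removed. The 2 members at unadjusted p under 0.05, Cdkn1a and Ier5, were both lower in KT, against 4.38% of all genes, and both had groups that did not overlap, with KT below, against 5.54% (10.1% in either direction). Btg2, higher in KT, joined them with the dimmest 33.3% of genes removed, an offset of 64, limma-trend or without KT array 2, and took the place of Ier5 with quantile normalization. Only Cdkn1a was in that count with the replicate number as a block, with array weights, with the 6 compared arrays alone or without KT array 3. Without SD array 2 the count was 3 (Btg2, Cdkn1a and Gadd45g), and without SD array 3 it was 2, Btg1 and Cdkn1a.

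Read array by array against the saline mean, the SD arrays carried different mixtures. SD array 1 had Cdkn1a at 0.64, Gadd45g at -0.56 and Btg2 at -0.44 on the log2 scale. SD array 2 had the highest Cdkn1a, 0.79, with Gadd45g at 0.012 and Gadd45b at -0.063. SD array 3 had the smallest Cdkn1a value of the group, 0.29, beside the lowest Btg2 (-0.60) and Gadd45b (-0.49) of all 9 arrays. Cdkn1a was therefore not highest where the Btg2 and Gadd45 values were lowest. Among KT arrays, array 2 had the lowest values of Cdkn1a (-0.26), Btg2 (-0.32), Gadd45b (-0.45), Gadd45g (-0.39) and Ier2 (-0.42) in its group and, by a small margin, of Btg1 (0.037), and Ier5 was lowest on KT array 3 (-0.32).

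**Figure D3:**
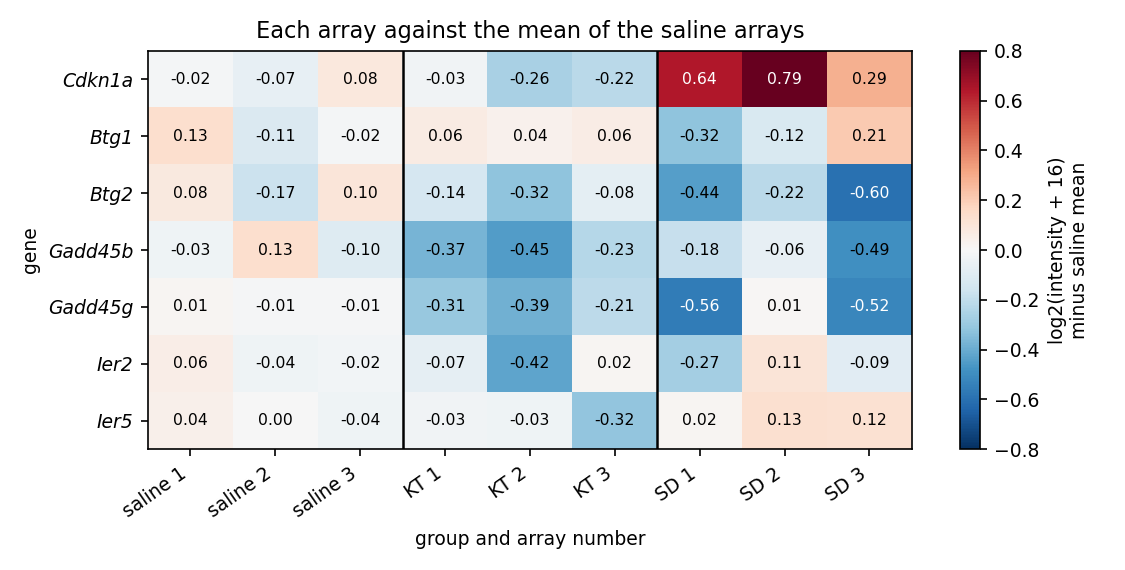
Heat map of log2(intensity + 16) on each array minus the mean of the saline arrays, with genes in rows and arrays in columns by group and array number. SD array 2 combines the highest Cdkn1a (0.79) with a Gadd45g value at the saline level (0.01), and KT array 2 is the lowest KT array for 6 of the 7 genes.

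Genes whose level followed that of 3 members most closely were found over all 9 arrays among 11083 other genes at or above the median gene's mean. The correlations are descriptive, come from the best of many genes and include the differences between groups. Cdkn1a was followed most closely by Sorcs3, a sorting receptor gene (Pearson r = 0.984, Spearman rho = 0.933, n = 9 arrays), then by the deubiquitinase gene Otub2 (r = 0.981), Ankrd50 (0.968), Iqgap2 (0.966) and Stox1 (0.966). Sorcs3 had a mean of 749 ± 78.2 in SD against 556 ± 26.0 in saline and 524 ± 17.1 in KT (SD, n = 3). Its log2 difference between SD and saline was 0.42 ± 0.10 (adjusted p = 0.924), and that of Otub2 was 0.37 ± 0.10.

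For Btg2 the closest genes were Calb1, which encodes the calcium-binding protein calbindin (r = 0.943), Zfp46 (0.939), the citrate transporter gene Slc13a5 (0.935), the clock repressor gene Ciart (0.930) and the translation initiation factor gene Eif3f (0.922). Calb1 had means of 1339 ± 110 in saline, 1181 ± 111 in KT and 1082 ± 95.2 in SD (SD, n = 3), which is the order of Btg2. Ciart had the largest SD difference of these, -0.57 ± 0.11 against saline (adjusted p = 0.527). For Gadd45b they were the noncoding RNA gene Zfas1 (0.962), 4930481A15Rik (0.945), Glcci1 (0.942), Efcab1 (0.928) and Cox4i1, a subunit gene of cytochrome c oxidase (0.922). Zfas1 stood at -0.24 ± 0.09 in KT against saline and Glcci1 at -0.21 ± 0.09, both with adjusted p = 0.870.

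Relatives and partners of these genes were read from 11 lists. No gene of these lists passed adjusted p 0.05 in any comparison (0 genes by limma). Of the BTG and TOB family beyond the members, 3 of 4 genes were measured, and Tob1, another deadenylase recruiter, read 730, 777 and 738 on saline arrays, 661, 684 and 625 on KT arrays and 704, 705 and 666 on SD arrays. Both treatments lay below saline without overlap, at -0.18 ± 0.09 and -0.11 ± 0.09 (unadjusted p = 0.0519 and 0.219). Over all genes 7.89% had KT below saline without overlap, and 3.54% had SD below saline. Tob2 was at 0.0015 ± 0.09 in KT, where it overlapped saline, and at -0.080 ± 0.09 in SD, where it lay below without overlap. Btg4, known from oocytes, was dim (52.8 in saline) and stood at -0.26 ± 0.10 in KT against SD (unadjusted p = 0.0205).

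The other 7 cyclin-dependent kinase inhibitor genes had 0 members at unadjusted p under 0.05 in any comparison, with medians of 0.027 in KT and 0.0073 in SD against saline. The SD value of Cdkn1a lay outside the range of these relatives. Cdkn1b, the p27 gene, was at 0.0073 ± 0.12 in SD and -0.19 ± 0.12 in KT against saline. Cyclins, their kinases and PCNA, the targets of CDKN1A, had 0 of 10 members at unadjusted p under 0.05 in any comparison and medians of -0.068 in KT and -0.0013 in SD against saline.

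Of 23 measured p53 target genes beyond the members, 0 had an unadjusted p under 0.05 in SD against saline (9 higher and 14 lower, median -0.010). In KT against saline 1 did, Trp53inp1, a stress-induced nuclear protein gene, at -0.29 ± 0.09, and the median was -0.040. In KT against SD 2 did, the polo-like kinase gene Plk3 at -0.43 ± 0.11 (unadjusted p = 0.00211) and the pro-apoptotic gene Pmaip1 at 0.25 ± 0.12. Both counts were near the shares of all genes with such a p, 4.57% in KT against saline and 9.48% in KT against SD. Plk3 read 244, 222 and 224 on saline arrays, 253, 322 and 253 on SD arrays and 224, 198 and 179 on KT arrays, so SD lay above both other groups, as for Cdkn1a. In SD against saline Plk3 was at 0.24 ± 0.11 (unadjusted p = 0.0521). Mdm2 and Ccng1, which are widely used p53 targets, were at 0.041 ± 0.13 and 0.00092 ± 0.13 in that comparison. DNA damage kinases and sensors had 0 of 10 members at unadjusted p under 0.05 in any comparison.

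Subunits and partners of the CCR4-NOT deadenylase, on which BTG proteins act, had lower means in KT than in saline for 10 of 10 measured genes (median -0.12) and lower means in KT than in SD for 10 of 10 (median -0.15), but 0 had an unadjusted p under 0.05 in either. Over all genes 54.6% and 53% had a lower mean in those comparisons, with medians of -0.015 and -0.012, which became -0.041 in both with the dimmest 33.3% of genes removed. The 2 comparisons share the KT arrays. In KT against saline 7 of 7 astrocyte markers (median -0.092) and 7 of 8 endothelial markers (median -0.099) also had a lower mean, and their part in the CCR4-NOT values was not tested. The MAP kinase partners of GADD45 proteins had 6 of 7 lower in KT than in saline (median -0.068) and 0 at unadjusted p under 0.05 in any comparison. Map3k4, the kinase that GADD45 proteins bind, was at -0.068 ± 0.09 in KT and -0.048 ± 0.09 in SD against saline.

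Genes of active DNA demethylation had a median of -0.048 in KT and 0.011 in SD against saline. At unadjusted p under 0.05, 1 of 10 measured members was called in SD against saline and in KT against SD. Over all genes those shares were 3.52% and 9.48%. The member called was Tet3, a 5-methylcytosine oxidase gene. It read 345, 432 and 420 on saline arrays, 463, 557 and 461 on SD arrays and 376, 383 and 384 on KT arrays. All SD arrays lay above all others, at 0.30 ± 0.11 over saline (unadjusted p = 0.0161) and -0.36 ± 0.11 for KT against SD (unadjusted p = 0.00564). Tet3 was thus high in the group in which Cdkn1a was high and Btg2 low.

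Proliferation markers had 10 of 12 higher in KT than in saline (median 0.10), where 54.6% of all genes were lower, with 2 at unadjusted p under 0.05, against 4.57% of all genes. These 2 were Birc5, the survivin gene, at 0.31 ± 0.10 and Mcm3, a replicative helicase gene, at 0.21 ± 0.09 in KT against saline. In SD against saline 5 were higher and 7 lower (median -0.012), and Mcm3 was at 0.20 ± 0.09. In KT against SD 11 of 12 were higher (median 0.063), where 53% of all genes were lower. Of the 12, 1, Birc5, had an unadjusted p under 0.05, against 9.48% of all genes. Birc5 and Mcm3 were both dim, with means of 27.1 and 70.3 in saline, below the median gene's 129. Of 12 FoxO and stress-response transcription factors, 2 were lower at unadjusted p under 0.05 in KT against saline, where 2.35% of all genes were. The same 2 were lower in KT against SD, where 4.38% of all genes were, and 0 of 12 had such a p in SD against saline. Klf4 was at -0.33 ± 0.09 and Cebpb at -0.24 ± 0.10 in KT against saline, and at -0.29 ± 0.09 and -0.31 ± 0.10 in KT against SD. The other 2 IER genes, Ier3 and Ier5l, were at 0.16 ± 0.10 and -0.11 ± 0.10 in SD against saline, and at 0.072 ± 0.10 and -0.015 ± 0.10 in KT.

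**Figure D4:**
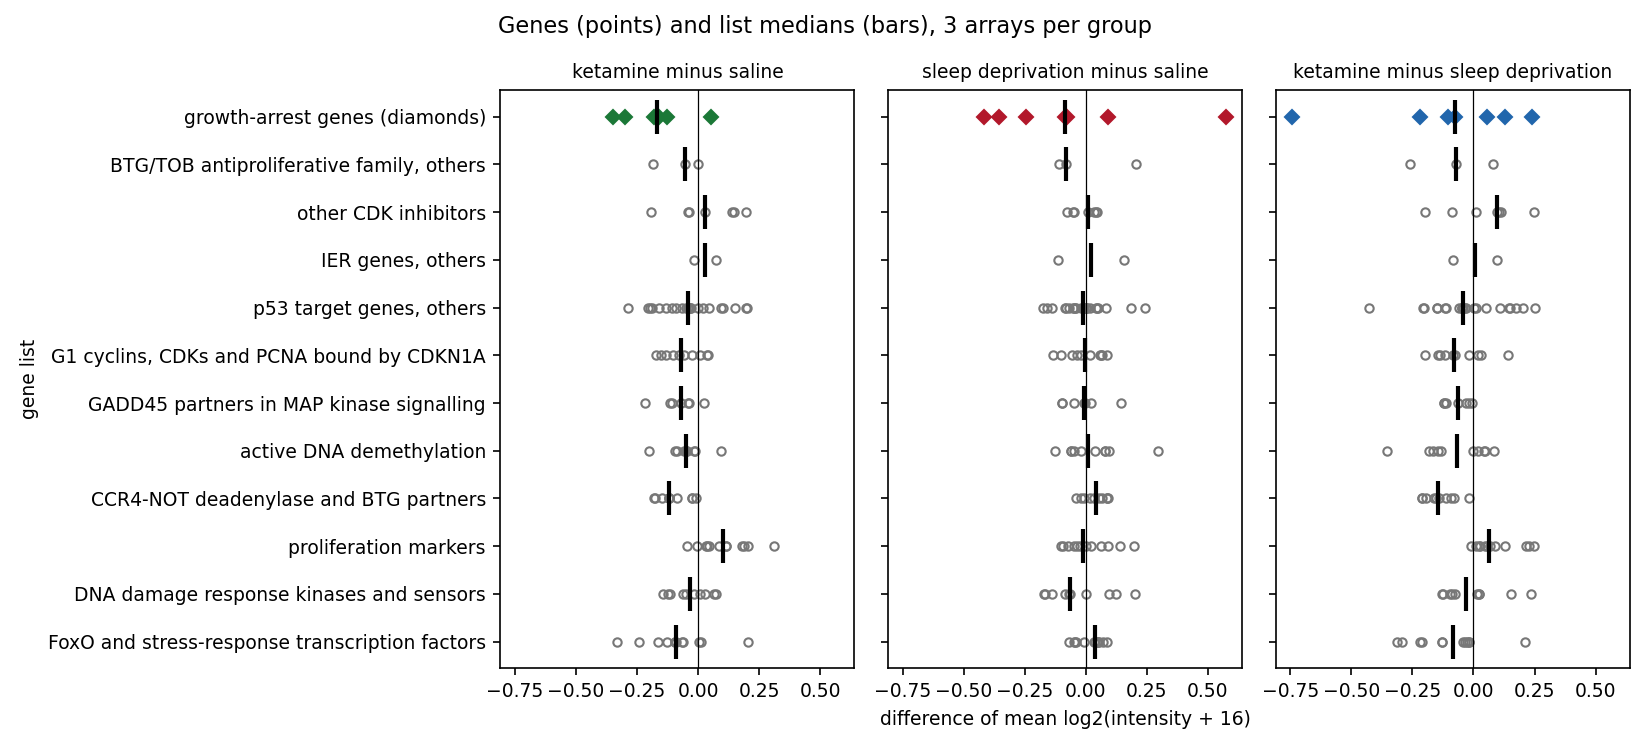
Differences of mean log2(intensity + 16) for the growth-arrest genes (diamonds) and 11 lists of related genes (circles), with list medians as vertical bars, in 3 panels for the 3 comparisons. Cdkn1a lies at 0.57 in the middle panel and -0.74 in the right panel, outside every circle, and no listed gene passed adjusted p 0.05.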

How the data were processed

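Total RNA of 9 samples, 3 per group, was hybridised to Affymetrix arrays. Expression Console 1.1.1 of Affymetrix and PLIER 2.0, which gives 1 value per probe set, are the tools named in the submitters' processing notes. The values the authors deposited are linear intensities. Background correction and normalization between arrays were not given in the sources used here. The deposited table holds 41345 probe sets, of which 23521 have 1 gene symbol, 1814 several and 16010 none. Symbols were updated through gene identifiers to RefSeq (23328 matched), and the brightest probe set was kept for each of 22180 genes. No pair of arrays was identical (0 pairs).

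Differences of log2(intensity + 16), which damps dim genes, were tested with lmFit, contrasts.fit and eBayes of limma 3.58.1 (R 4.3.3), with all 9 arrays in 1 fit, 6 residual degrees of freedom, Benjamini-Hochberg adjustment over all genes and a threshold of 0.05. The fit was tested on simulated data. The number of arrays limits precision, and the median SE of a difference was 0.11. The labels name replicates but do not say that a number marks a shared batch. Deviations of same-numbered arrays correlated over 0.1 in 2 of 9 pairs, so numbers were not used as pairs. Larger correlations in size lay between arrays of different numbers, 0.54 for SD array 2 with KT array 1 and -0.51 for SD array 2 with KT array 3. Their cause was not tested. The table gives no scan date or slide, so a batch was not tested.

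The members and gene lists were chosen with earlier results of these data known. The text names the 8 genes sought, list members at unadjusted p under 0.05 (at most 4 a list), and the 5 genes most correlated with each of Cdkn1a, Btg2 and Gadd45b. Tob1, Tob2, Cdkn1b, Mdm2, Ccng1, Map3k4, Ier3 and Ier5l were added after their values were seen. Lists of cell type markers were summed per array, and the choroid plexus, astrocyte, endothelial, microglial, oligodendrocyte and neuronal ones are described. Alternatives covered scaling, offset, filter, variance model, weights, block, probe set rule and removal of each array.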

Additional observations from a re-analysis of the deposited data

How the results depend on the processing

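Counts are given in the order KT against saline, SD against saline and KT against SD. Genes at adjusted p under 0.05 numbered 0 in each by the limma fit, and 1439 and 42 with array weights (first and last), 1 and 3 in the second with centred arrays and limma-trend, and 5, 14 and 15 in the last with the dimmest 33.3% of genes removed, an offset of 64 and limma-trend. Leaving out single arrays gave 0 to 4 in the second (4 without SD array 2) and 0 to 214 in the last (214 without SD array 3). Genes at unadjusted p under 0.05 numbered 1013, 781 and 2103, and 6087, 1374 and 4151 with array weights and 1866 in the first with only the arrays compared. Without single arrays they ranged from 454 (saline array 2) to 1871 (KT array 1), 571 (saline array 2) to 2079 (SD array 3) and 1110 (KT array 3) to 4763 (SD array 3). Members at unadjusted p under 0.05 numbered 2, 3 and 2. The first became 1 with an offset of 1 and 5 with array weights, the last became 1 with array weights, with only the arrays compared and with the replicate block, and single arrays left out gave 0 to 2, 2 to 4 and 1 to 3. The dimmest 33.3% of genes removed, an offset of 64 and limma-trend each raised the second to 4 and the last to 3, and quantile normalization raised the second to 4. With the replicate number as a block the counts of members were 2, 3 and 1, and same-numbered arrays correlated at -0.20 to 0.44.

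Over the removal of single arrays, 5 differences changed sign, all near 0. In KT against saline Btg1 ranged from -0.0043 to 0.12. In SD against saline Btg1 ranged from -0.22 to 0.046 and Ier2 from -0.18 to 0.0071. In KT against SD Gadd45g ranged from -0.047 to 0.24 and Ier2 from -0.17 to 0.057. The other 16 member differences kept their sign under each alternative. With array weights 5 members passed adjusted p 0.05 in KT against saline, namely Cdkn1a (-0.26), Btg2 (-0.33), Gadd45b (-0.40), Gadd45g (-0.37) and Ier2 (-0.38). The cause of these shifts was not tested. With 3 arrays a group, the SE of a member difference was 0.10 to 0.13.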
